A study of Mus musculus with 24 samples.

Results

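The miR-103 and miR-107 family was followed through mouse spermatocytes and round spermatids that carry or lack 3 Argonaute genes. Its members were taken by name from the table of mature mouse miRNAs, whatever their counts: mmu-miR-103-3p, mmu-miR-107-3p and the opposite strands mmu-miR-103-1-5p, mmu-miR-103-2-5p and mmu-miR-107-5p, 5 of 1978 mature miRNAs. Of these 5, the 2 guide strands, miR-103-3p and miR-107-3p, had enough counts to be tested (10 or more counts in 3 or more libraries of the cell type), and the other 3 did not. The series holds small RNA sequencing of 24 libraries, 4 for each of 3 genotypes in enriched pachytene/diplotene spermatocytes and in enriched round spermatids. The genotypes were Ago413+/+, Ago413+/- and Ago413-/-, where the -/- allele is a joint deletion that removes Ago1 and parts of Ago3 and Ago4 and leaves Ago2 in place. The deletion is carried by every cell of the animal, so somatic testis cells lack these genes as well. All males were 10 to 15 weeks old on a C57BL/6J background. Cells came from testes of 2 to 5 mice for a preparation, fractions above 70% purity were pooled, and libraries were made from 100 ng of RNA. The paper's methods give a higher range of purity for the round spermatid fractions than for the spermatocyte fractions. The loss of the Argonaute genes could not be checked from miRNA counts, but the paper reports by western blot that the testes of Ago413-/- males had lost AGO1, AGO3 and AGO4.

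A miRNA is cut from the stem of a hairpin, and one strand, the guide, is loaded into an Argonaute protein while the opposite strand, the passenger, is usually degraded. The guide finds target mRNAs mainly through its seed, the bases that follow the first base at its 5′ end. The genes of miR-103 and miR-107 lie inside introns of the pantothenate kinase genes (Pank), which encode the enzyme of the first step of coenzyme A synthesis. The family is known for its effects on insulin sensitivity and on Dicer, the enzyme that cuts miRNA hairpins.

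The guide strands are shown first because their likeness sets how well the table can tell them apart. They are printed 5′ to 3′ with the seed, bases 2 to 8, in capitals, as listed by RefSeq for GRCm38.p6.
mmu-miR-103-3p: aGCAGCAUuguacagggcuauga
mmu-miR-107-3p: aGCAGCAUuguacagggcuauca
The seed was the same in both, and they differed by 1 substitution, G22C, with positions counted from 1 at the 5′ end and the miR-103-3p base first. A read that ends before position 22 therefore fits both, and how such reads were assigned is not given in the sources used here. Among the 1679 miRNAs of the table with a sequence in the reference, these 2 were the only ones with this seed, and no further one lay within 3 differences of miR-103-3p.

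The 3 passenger strands, with the same bases in capitals, are the members that were almost not counted.
mmu-miR-103-1-5p: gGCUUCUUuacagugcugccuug
mmu-miR-103-2-5p: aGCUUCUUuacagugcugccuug
mmu-miR-107-5p: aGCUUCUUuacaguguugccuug
miR-103-1-5p and miR-103-2-5p differed at their first base (G1A), and miR-107-5p differed from miR-103-2-5p by C16U. The passenger strands can therefore be told apart by hairpin only in reads that hold these bases. How other reads, or reads with a mismatch, were assigned is not given. In contrast, miR-103-3p is the product of both miR-103 hairpins and its count is their sum.

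The 3 hairpins are given with the guide strand in capitals, to show where each strand sits.
Mir103-2: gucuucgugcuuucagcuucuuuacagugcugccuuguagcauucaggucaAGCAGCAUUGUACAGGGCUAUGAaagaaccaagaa
Mir103-1: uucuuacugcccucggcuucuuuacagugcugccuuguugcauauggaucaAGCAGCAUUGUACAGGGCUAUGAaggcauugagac
Mir107: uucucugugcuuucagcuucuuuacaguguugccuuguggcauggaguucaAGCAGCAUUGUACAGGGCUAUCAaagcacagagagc
In each hairpin 14 bases separate the passenger strand from the guide strand. Mir103-2 lies at chr2:131288052-131288137 on the plus strand in intron 5 of the 6 introns of the principal transcript of Pank2. Mir103-1 lies at chr11:35782396-35782481 on the plus strand in intron 5 of the 6 introns of that of Pank3. Mir107 lies at chr19:34820687-34820773 on the minus strand in intron 5 of the 6 introns of that of Pank1. All 3 hairpins have the same strand as their host gene and the same intron number (GENCODE), in introns of 5801, 1740 and 7282 bases. They start 454, 688 and 326 bases after the upstream exon. The host mRNAs are not part of these libraries, so transcription of the Pank genes was not measured here.

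Library totals ran from 182904 to 1072637 counts. Replicate 2 of Ago413-/- spermatocytes was the smallest library and stood apart, with a median absolute deviation of 1.26 on the log2 scale from the mean of the other 3 libraries of its group, where the other 23 libraries had 0.27 to 0.73. Its summed level of the meiotic and later germ cell miRNAs (miR-34b-5p, miR-34c-5p and miR-449a-5p) was the lowest of all, 18730 CPM (counts scaled to the same library total) against 36446 to 185930 CPM in the others. Of the 15 marker miRNAs in 6 lists of cell types, none was at 0 in all libraries, so miRNAs of blood, vessels, peritubular cells and somatic gonadal cells were detected in these fractions. Nothing states that the libraries of a group are from separate animals beyond the pooling of mice, so p-values measure the spread between these libraries, which may in part be technical. In such bulk samples, fewer cells of a type and less RNA per cell cannot be told apart.

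mmu-miR-103-3p made up nearly the whole family. It held 51314 of the family's counts over the 24 libraries, or 95.6%, and was counted in all 24 libraries. It was between the 36th and the 81st most abundant miRNA of a library (median rank 48) and took 0.102% to 0.532% of the counts. mmu-miR-107-3p held 2333 counts, or 4.35% of the family, and ranked from 152 to 236 (median 180). In Ago413+/+ spermatocytes miR-103-3p was in place 44, between miR-125b-5p at 4393 CPM ± 1497 (SD, n = 4) and miR-425-5p at 4147 CPM ± 808, and it did not differ from either beyond their spread. miR-107-3p was in place 178 there, between miR-140-5p at 203 CPM ± 25.9 and miR-466b-3p at 195 CPM ± 26.9, again within their spread.

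The passenger strands were close to the limit of detection. mmu-miR-103-2-5p had 14 counts in 8 libraries, at most 3 in one library, with 6 counts in Ago413+/- round spermatids, 4 in Ago413+/+ spermatocytes, 3 in Ago413-/- round spermatids and 1 in Ago413+/- spermatocytes. mmu-miR-107-5p had 1 count in Ago413+/+ spermatocytes and 1 in Ago413+/- round spermatids. mmu-miR-103-1-5p had 0 of 12340327 counts, which allows up to 0.243 CPM over the whole series. The passenger share was 0.0273% of the counts of the miR-103 hairpins (95% exact binomial interval 0.0149% to 0.0458%) and 0.0857% of those of the miR-107 hairpin (0.0104% to 0.309%). Both were low beside other hairpins: the minor strand took a median of 2.32% over the 117 hairpins with at least 1000 counts, of which 14 had a lower share than miR-103 and 20 a lower share than miR-107. Since PCR copies carry no molecular identifiers here, reads are not independent and these intervals and limits cover counting error only.

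miR-103-3p in every library is given in CPM scaled by TMM, in the order of replicates 1 to 4. In Ago413+/+ spermatocytes the levels were 4185, 4218, 4282 and 4141 CPM, a mean of 4207 ± 59.6 (SD, n = 4). In Ago413+/- spermatocytes they were 4795, 3722, 2889 and 2888 CPM, a mean of 3573 ± 904. In Ago413-/- spermatocytes they were 4269, 1245, 3562 and 4467 CPM, a mean of 3386 ± 1479. The 4 Ago413+/+ libraries lay close together, 3 of the 4 Ago413+/- libraries were below all of them, and the low Ago413-/- value came from replicate 2, which had 187 counts of miR-103-3p. The 3 groups overlapped. Groups free of overlap with Ago413+/+ were found for 0 of the 2 guide strands in spermatocytes, beside 19.8% of the 404 miRNAs for Ago413-/- and 2.48% for Ago413+/- (21.8% and 2.23% with plain library totals in place of TMM).

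In round spermatids miR-103-3p was at 3541, 3416, 4033 and 5051 CPM in Ago413+/+, a mean of 4010 ± 743 (SD, n = 4). It was at 3823, 5157, 4123 and 4209 CPM in Ago413+/-, a mean of 4328 ± 577. It was at 4493, 4770, 4441 and 4099 CPM in Ago413-/-, a mean of 4451 ± 276. The groups overlapped, and the highest Ago413+/+ library was above all 4 Ago413-/- libraries. From highest to lowest, the group means ran from Ago413-/- and Ago413+/- round spermatids through Ago413+/+ spermatocytes and Ago413+/+ round spermatids to Ago413+/- and Ago413-/- spermatocytes, and no neighbours in this order differed beyond their spread.

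miR-107-3p in Ago413+/+ spermatocytes was at 206, 231, 220 and 136 CPM, a mean of 198 ± 42.6 (SD, n = 4). In Ago413+/- spermatocytes it was at 246, 184, 167 and 96.3 CPM, a mean of 173 ± 61.6. In Ago413-/- spermatocytes it was at 177, 59.9, 148 and 91.4 CPM, a mean of 119 ± 53.1. All 4 Ago413-/- libraries were under the Ago413+/+ mean, but the groups overlapped through replicate 4 of Ago413+/+. The lowest value, in replicate 2 of Ago413-/-, rested on 9 counts.

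In round spermatids miR-107-3p was at 149, 161, 166 and 180 CPM in Ago413+/+, a mean of 164 ± 12.9 (SD, n = 4). It was at 127, 274, 149 and 162 CPM in Ago413+/-, a mean of 178 ± 65.6. It was at 273, 184, 196 and 248 CPM in Ago413-/-, a mean of 225 ± 42.1. The lowest Ago413-/- library, at 183.7 CPM, was just above the highest Ago413+/+ library, at 179.8 CPM, so these groups did not overlap on this scale. With plain library totals in place of TMM they did, from 160 to 275 CPM in Ago413-/- and from 143 to 183 CPM in Ago413+/+. Of all 426 miRNAs tested in round spermatids, 23.7% did not overlap between these genotypes with TMM and 21.4% with library totals, and 5.4% did not overlap between Ago413+/- and Ago413+/+ on either scale. The order of the 6 group means was Ago413-/- round spermatids, Ago413+/+ spermatocytes, Ago413+/- round spermatids, Ago413+/- spermatocytes, Ago413+/+ round spermatids and Ago413-/- spermatocytes, with overlapping neighbours throughout.

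**Figure D1:**
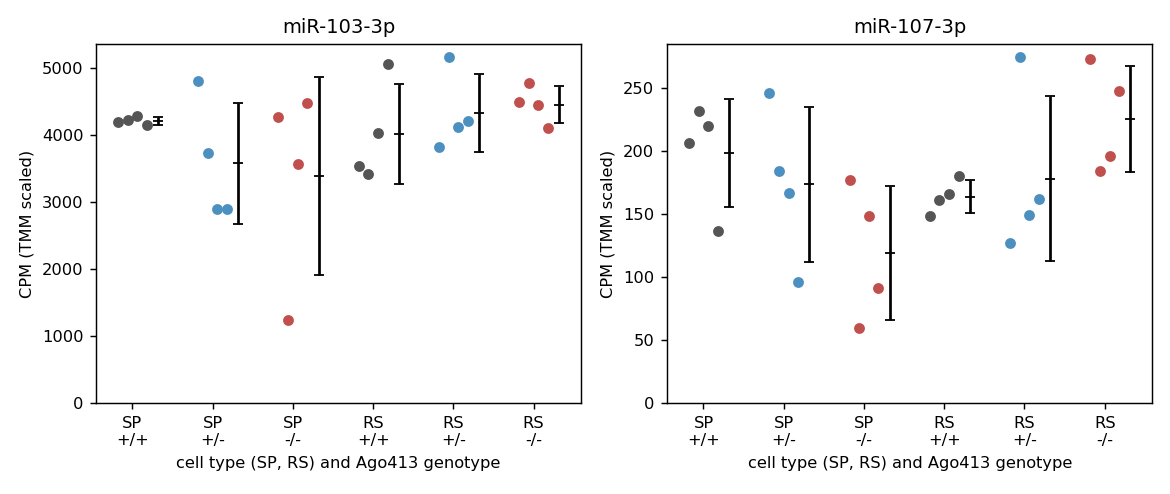
Level of miR-103-3p (left) and miR-107-3p (right) in the 24 libraries, in TMM-scaled CPM on linear axes that start at 0, by cell type (SP, spermatocytes, and RS, round spermatids) and Ago413 genotype. Points are libraries in the order of replicates 1 to 4 and bars are the mean ± SD of 4. Replicate 2 of the Ago413-/- spermatocytes is the lowest point of both panels, at 1245 and 59.9 CPM.

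The first comparison asked whether the guide strands changed in spermatocytes with the joint deletion. The paper states that wild-type spermatocytes hold no detectable Ago1, and it reads the deletion as a combined loss of AGO3 and AGO4. Neither was called by edgeR's quasi-likelihood test, where a call needed a Benjamini-Hochberg adjusted p under 0.05 and a log2 fold change of 1 or more in either direction, and 4.46% of the 404 miRNAs tested were called. The log2 fold change of miR-103-3p in Ago413-/- against Ago413+/+ was -0.32 (SE 0.36, 95% interval -1.09 to 0.44), with an adjusted p of 0.623 from edgeR. That of miR-107-3p was -0.72 (SE 0.39, interval -1.56 to 0.11), with an adjusted p of 0.287 from edgeR. Over the replicates left out in turn, miR-103-3p ran from -0.55 without replicate 1 of Ago413-/- to -0.05 without replicate 2, and miR-107-3p from -1.08 to -0.52 for the same libraries, with no call in any. The interval of miR-107-3p covers both no change and a fall past the threshold.

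In Ago413+/- spermatocytes the same Ago413+/+ libraries served as the reference, and 0% of the miRNAs were called, with 13 at an unadjusted p under 0.05 by edgeR and none called by DESeq2. The log2 fold change was -0.19 (SE 0.36) for miR-103-3p and -0.15 (SE 0.39) for miR-107-3p, with an adjusted p of 1.00 for both from edgeR.

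In round spermatids neither guide strand was called in Ago413-/- against Ago413+/+, beside 16.2% of the 426 miRNAs tested. miR-103-3p had a log2 fold change of 0.30 (SE 0.19, interval -0.11 to 0.70) and an adjusted p of 0.274 from edgeR. miR-107-3p had a log2 fold change of 0.60 (SE 0.26, interval 0.05 to 1.16), an edgeR p of 0.0343 and an adjusted p of 0.102, so it missed the threshold on both size and adjusted p. The median log2 fold change over all 426 miRNAs was 0.13 in this comparison, and relative to it the values were 0.16 for miR-103-3p and 0.47 for miR-107-3p. With library totals in place of TMM the median over all miRNAs moved by -0.23 and these relative values were 0.16 and 0.49. Without replicate 1 of Ago413+/+ the log2 fold changes were 0.02 for miR-103-3p and 0.33 for miR-107-3p.

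Some miRNAs of the somatic gonadal, endothelial and blood lists were higher in the same Ago413-/- round spermatid libraries. The list medians of the log2 fold change were 0.94 for somatic gonadal, 1.55 for endothelial and 2.69 for blood miRNAs. They were -0.94 for peritubular, 0.66 for spermatogonial and 0.21 for meiotic miRNAs, beside 0.13 over all miRNAs. Of all 426 miRNAs tested there, 16.2% were called. The summed level of the somatic gonadal miRNAs (miR-202-5p and miR-202-3p) was 9023 to 15961 CPM in Ago413-/- and 2497 to 8167 CPM in Ago413+/+, with 1 of the 2 called higher. The endothelial pair (miR-126a-3p and miR-126a-5p) summed to 1949 to 5852 CPM against 511 to 1988 CPM, ranges that overlapped at their ends, with 1 of 2 called higher. For blood, both tested miRNAs of the 3 listed (miR-451a and miR-486a-5p) were called higher. The sums of the blood list were 510, 103, 612 and 4807 CPM in replicates 1 to 4 of Ago413-/-. They were 49.1 to 501 CPM in Ago413+/+, so that the ranges overlapped. Without replicate 4 neither blood miRNA was called, beside 15% of all 421 miRNAs called, whereas the somatic gonadal and endothelial calls stood. No miRNA of the peritubular, spermatogonial or meiotic lists was called. In Ago413-/- spermatocytes against Ago413+/+ no marker miRNA was called, beside 4.46% of all 404 miRNAs. The meiotic list had a median log2 fold change of -0.78 there, and the medians of the other marker lists ran from -0.17 to 0.63. In round spermatids against spermatocytes of Ago413-/- none was called either, beside 4.89% of all 450 miRNAs. The median there was 0.76 for the meiotic list and -0.14 to 1.75 for the others. The part of these cells in the results for miR-107-3p was not tested.

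In Ago413+/- round spermatids, against the same Ago413+/+ libraries, 0% of the miRNAs were called by edgeR, with 68 at an unadjusted p under 0.05 and 8 called by DESeq2. The log2 fold change was 0.18 (SE 0.19) for miR-103-3p and 0.18 (SE 0.26) for miR-107-3p, with adjusted p of 0.670 and 0.767 from edgeR.

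**Figure D2:**
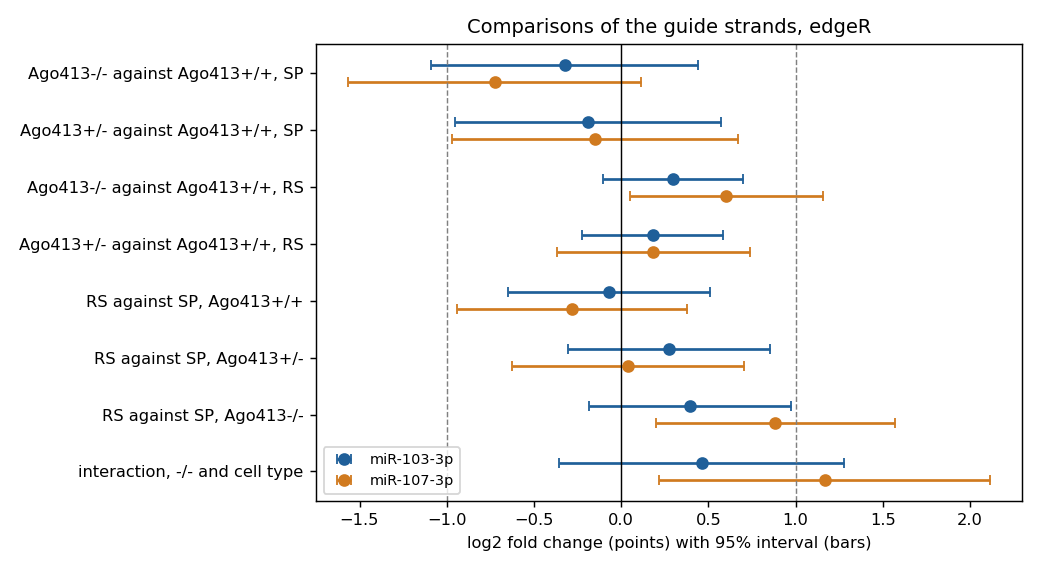
Log2 fold change of miR-103-3p and miR-107-3p in 7 comparisons and the interaction of Ago413-/- with cell type, by edgeR. Points are estimates, bars are 95% intervals, and dashed lines mark the threshold of 1 in either direction. The intervals of miR-107-3p lie above 0 in Ago413-/- round spermatids against Ago413+/+, from 0.05 to 1.16, in round spermatids against spermatocytes of Ago413-/-, from 0.20 to 1.57, and in the interaction, from 0.22 to 2.12, none of them with an adjusted p under 0.05.

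The cell types were compared within each genotype in a fit of all 24 libraries and 450 miRNAs. In Ago413+/+, round spermatids against spermatocytes gave a log2 fold change of -0.07 (SE 0.28) for miR-103-3p and -0.28 (SE 0.32) for miR-107-3p, with an adjusted p of 0.996 for both from edgeR. The guide strands thus differed between these meiotic and postmeiotic fractions by less than their errors. No miRNA was called there (0%, with 10 at an unadjusted p under 0.05 by edgeR and none called by DESeq2). In Ago413+/- the values were 0.28 (SE 0.28) and 0.04 (SE 0.32), with an adjusted p of 0.988 for both from edgeR, and again 0% were called, with 15 at an unadjusted p under 0.05 and none called by DESeq2.

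In Ago413-/- the same contrast gave a log2 fold change of 0.39 (SE 0.28) for miR-103-3p, with an adjusted p of 0.374 from edgeR. For miR-107-3p it was 0.88 (SE 0.33, interval 0.20 to 1.57), with an edgeR p of 0.0134 and an adjusted p of 0.0966, and 4.89% of all miRNAs were called. That share is unstable, since 22 miRNAs were called with all libraries, 17 with a replicate block, 1 without replicate 2 of Ago413-/- spermatocytes and 62 without replicate 1. miR-107-3p itself passed the threshold without replicate 1 of Ago413-/- spermatocytes, with a log2 fold change of 1.14 and an adjusted p of 0.0385 from edgeR, and in no other setting run.

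The interaction term asked whether the effect of Ago413-/- differed between the cell types. For miR-103-3p it was 0.46 on the log2 scale (SE 0.40), with an adjusted p of 0.567 from edgeR. For miR-107-3p it was 1.17 (SE 0.46, interval 0.22 to 2.12), with an edgeR p of 0.0182 and an adjusted p of 0.381. No miRNA passed an adjusted p under 0.05 (0% of 450, with 55 at an unadjusted p under 0.05 by edgeR and 0 by DESeq2 after adjustment). A different effect in the cell types was therefore not shown for either guide strand.

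The share of miR-107-3p in the sum of both guide strands does not depend on how libraries are scaled. It was 2.00% to 5.72% over the 24 libraries, with a mean of 4.23% ± 0.91 (SD). The group means were 4.49% ± 0.89 in Ago413+/+, 4.57% ± 0.95 in Ago413+/- and 3.64% ± 1.13 in Ago413-/- spermatocytes (SD, n = 4). In round spermatids they were 3.98% ± 0.43, 3.86% ± 0.81 and 4.84% ± 1.03 in the same order. The shares of single libraries spread more than counting error gives, with a chi-square of 3.76 per degree of freedom over 23 degrees of freedom.

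As a log2 ratio of miR-107-3p to miR-103-3p counts, Ago413-/- differed from Ago413+/+ by -0.33 in spermatocytes and by 0.28 in round spermatids. With 4 libraries against 4, two-sided exact permutation tests gave p of 0.400 and 0.229, adjusted over the 7 contrasts to 0.560 for both, where the smallest p the design can give is 0.0286. Round spermatids against spermatocytes of Ago413-/- differed by 0.44 (exact permutation p 0.229, adjusted 0.560). Without replicate 4 of Ago413-/- spermatocytes, the library with the lowest share, the spermatocyte difference was -0.057 and that between the cell types 0.17. The other 4 contrasts ranged from -0.25 to 0.03, with exact permutation p of 0.371 to 0.743. A lone contrast at the smallest exact permutation p of 0.0286 would not have passed after adjustment over 7 contrasts. The adjusted values could therefore hardly pass and decide little. By the unadjusted p, the ratio of the guide strands moved in no contrast beyond the spread of the libraries.

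**Figure D3:**
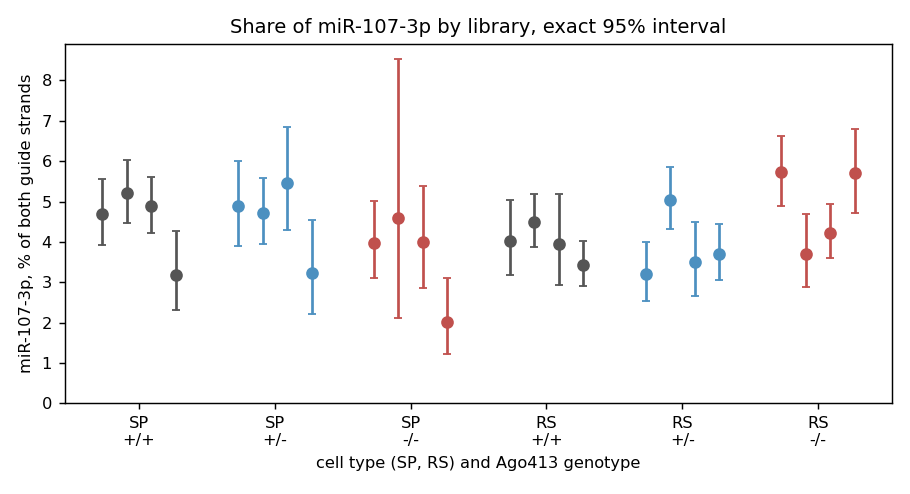
Share of miR-107-3p in the counts of both guide strands, in percent on an axis that starts at 0, for each library by cell type (SP, RS) and Ago413 genotype. Bars are exact binomial 95% intervals and cover counting error only. The shares run from 2.00% in replicate 4 of Ago413-/- spermatocytes to 5.72% in replicate 1 of Ago413-/- round spermatids.

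Across the 24 libraries the levels of the 2 guide strands on the log2 scale rose and fell together to a degree that rested on a few libraries. Pearson's r was 0.72 and Spearman's rho 0.60 over 24 libraries, 0.74 and 0.57 over the 12 spermatocyte libraries, and 0.59 and 0.72 over the 12 round spermatid libraries. Without replicate 2 of Ago413-/- spermatocytes r was 0.50 and rho 0.55, and without the 2 libraries farthest from the median of miR-103-3p (that one and replicate 4 of Ago413+/- spermatocytes) r was 0.36 and rho 0.51. The points share library scaling and, for short reads, possibly reads. The group labels also differ among them, so these values describe the libraries only.

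**Figure D4:**
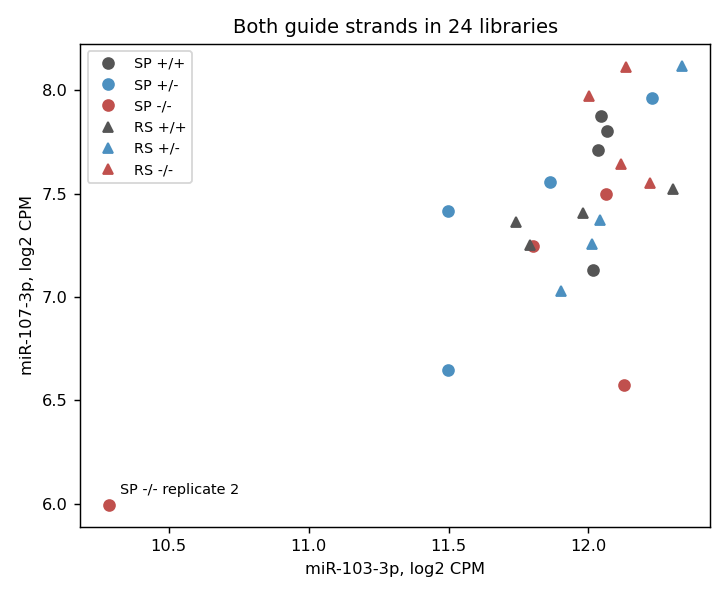
Level of miR-107-3p (y axis) against miR-103-3p (x axis), each in log2 CPM with a prior count of 2, in the 24 libraries, with circles for spermatocytes (SP), triangles for round spermatids (RS) and colours for genotypes. Pearson's r is 0.72 over all points and 0.50 without replicate 2 of the Ago413-/- spermatocytes, the point at the lower left.

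By the correlation of log2 CPM over the 24 libraries, miR-107-3p was in place 43 of the 449 other miRNAs in likeness to miR-103-3p, and miR-103-3p in place 17 in likeness to miR-107-3p. The 5 miRNAs most like miR-103-3p were miR-350-3p (r 0.863), miR-425-3p (0.861), miR-140-3p (0.853), miR-742-3p (0.824) and miR-872-3p (0.819), beside a median r of 0.239 over all 449. Without replicate 2 of Ago413-/- spermatocytes their r fell to between 0.232 and 0.607. The 5 most like miR-107-3p were miR-29a-3p (r 0.879), miR-34a-5p (0.864), miR-201-5p (0.861), miR-186-5p (0.856) and miR-138-5p (0.841), beside a median of 0.171. Without the same library these were 0.739 to 0.804.

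The miR-15 and miR-16 family is related by sequence, since its guide strands hold the first 6 bases of miR-103-3p 1 base further in. These bases are in capitals below, in the 2 miRNAs of that family that fell in both cell types and, for reference, in miR-103-3p and miR-16-5p.
miR-103-3p: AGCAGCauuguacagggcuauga
miR-16-5p: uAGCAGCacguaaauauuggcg
miR-195a-5p: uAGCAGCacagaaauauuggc
miR-497a-5p: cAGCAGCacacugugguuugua
miR-15 and miR-16 are best known for limiting the cell cycle and cell survival. In Ago413-/- spermatocytes 0 of the 6 members tested rose and 2 fell, beside 4.46% of all 404 miRNAs called, and the same 2 fell without replicate 2 of that group, beside 4.71%. The median log2 fold change over the 6 was -0.78, and over all 404 miRNAs it was -0.05. miR-195a-5p went from 772 CPM ± 214 in Ago413+/+ to 255 ± 95.3 in Ago413-/- (SD, n = 4), a log2 fold change of -1.60 (SE 0.38, edgeR adjusted p 0.0223). miR-497a-5p went from 190 CPM ± 37.5 to 23.8 ± 17.2, a log2 fold change of -3.03 (SE 0.51, edgeR adjusted p 0.00238). The log2 fold changes of miR-15a-5p (-0.25), miR-15b-5p (-0.43), miR-16-5p (0.07) and miR-322-5p (-1.13) did not pass. The call of miR-195a-5p was lost without replicate 3 of Ago413-/- (edgeR adjusted p 0.0530) and without replicate 4 of Ago413+/+ (0.0549).

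In Ago413-/- round spermatids 1 of the 6 rose and 2 fell, where 16.2% of all 426 miRNAs were called, 32 higher and 37 lower. The median log2 fold change was 0.20 over the 6 and 0.13 over all 426. miR-15a-5p rose from 67.5 CPM ± 26.9 to 157 ± 56.2, a log2 fold change of 1.32 (SE 0.35, edgeR adjusted p 0.0130), and lost its call without replicate 1 of Ago413+/+ (1.01) and without replicate 2 (1.03). miR-195a-5p fell from 651 CPM ± 182 to 283 ± 34.4, a log2 fold change of -1.06 (SE 0.25, edgeR adjusted p 0.00920), and was just under the threshold of 1 without replicate 3 of Ago413-/- (-0.99). miR-497a-5p fell from 168 CPM ± 74.4 to 33.6 ± 12.4, a log2 fold change of -2.17 (SE 0.39, edgeR adjusted p 0.00135). miR-16-5p had a log2 fold change of 0.90 (edgeR adjusted p 0.0134), under the threshold of 1 with all libraries and past it without replicate 3 of Ago413-/- (1.03). miR-15b-5p (-0.49) and miR-322-5p (0.92) did not pass. No member of this family was called in Ago413+/- or in the interaction, where 0% of all miRNAs were called. In round spermatids against spermatocytes of Ago413-/- miR-322-5p was called with a log2 fold change of 2.07 (edgeR adjusted p 0.0281), beside 4.89% of all 450 miRNAs called. It lost this call without replicate 2 or replicate 4 of the spermatocytes and without replicate 1, 3 or 4 of the round spermatids.

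**Figure D5:**
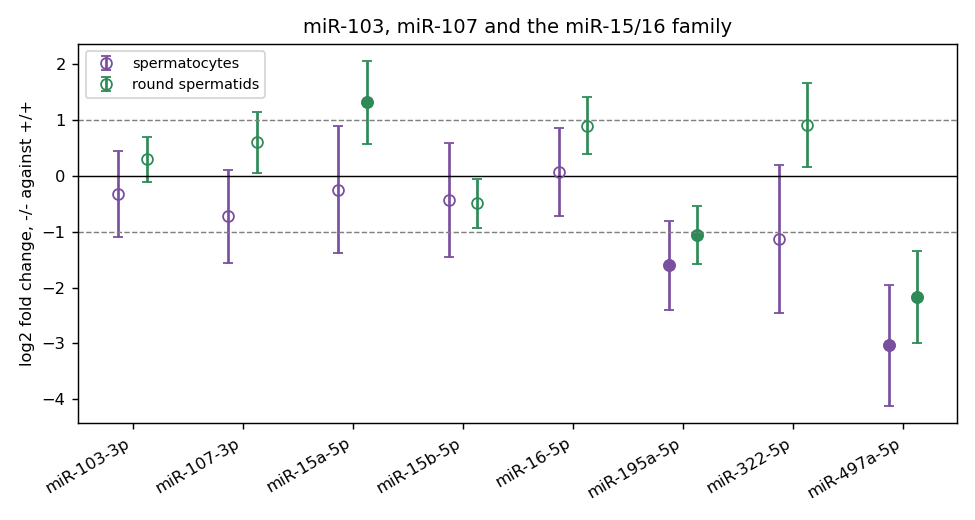
Log2 fold change of Ago413-/- against Ago413+/+ for miR-103-3p, miR-107-3p and the 6 tested members of the miR-15 and miR-16 family, in spermatocytes and round spermatids, by edgeR with 95% intervals. Filled points were called (adjusted p under 0.05 and a log2 fold change of 1 or more in either direction), open points were not, and dashed lines mark 1 in either direction. miR-195a-5p and miR-497a-5p are filled below 0 in both cell types, miR-15a-5p is filled above 0 in round spermatids, and both Pank intron miRNAs are open.

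Other miRNAs from introns of protein-coding genes were counted as a list of 15. Its 3 most abundant members in Ago413+/+ were miR-25-3p at 19698 CPM, miR-26a-5p at 19380 CPM and miR-7a-5p at 11898 CPM, the mean of both cell types. In Ago413-/- spermatocytes 0 of the 12 tested were called, beside 4.46% of all 404 miRNAs, with log2 fold changes of 0.62, -0.02 and -0.84 for these 3, and the median over the 12 was -0.16. In Ago413-/- round spermatids 1 of the 13 tested rose and none fell, beside 16.2% of all miRNAs called in either direction, with a median of 0.18 beside 0.13 over all miRNAs. miR-26b-5p rose there from 2154 CPM ± 287 to 4539 ± 1095 (SD, n = 4), a log2 fold change of 1.22 (SE 0.21, edgeR adjusted p 0.00103), and was under the threshold of 1 without replicate 1 of Ago413-/- (0.96) or of Ago413+/+ (0.96). In round spermatids against spermatocytes of Ago413-/- miR-152-3p was called with 1.04 (edgeR adjusted p 0.0427), beside 4.89% of all 450 miRNAs called. This call was lost without replicate 2 or replicate 4 of the spermatocytes and without each single replicate of the round spermatids. No intronic miRNA of this list was called in the other comparisons, where 0% of all miRNAs were called.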

How the data were processed

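Per the labels and the study's methods, the authors removed adapters with Trim Galore, counted reads on mature miRNAs (miRBase) by miRDeep2's quantifier and deposited the counts unnormalized. The options of the quantifier are not given in the sources used here. All 24 columns were used. Counts were tested with edgeR 4.0.16 (R 4.3.3, quasi-likelihood, TMM) without covariates, on miRNAs that reached 10 counts in 3 or more libraries of the fit (spermatocytes 404, round spermatids 426, all 24 libraries 450). The 3 genotypes of a cell type shared a fit. Adjusted p-values are Benjamini-Hochberg values over all miRNAs of a fit. A call needed an adjusted p under 0.05 and a log2 fold change of 1 or more in either direction, except for the interaction, which needed the adjusted p only. Standard errors are the log2 fold change over the square root of F. The share of miR-107-3p was compared by exact permutation tests in scipy 1.17.1, with a pseudocount of 0.5. The named miRNAs were the members, the miR-15 and miR-16 family, the 3 most abundant of 15 other intronic miRNAs, the 5 most alike in pattern and the neighbours in level. The miRNAs of the lists that were called are also named, chosen after their values were seen. Members and lists were chosen with earlier results of these data known. Hairpins were placed with RefSeq and GENCODE on GRCm38. Alternatives were RLE scaling, library totals, other filters, DESeq2 1.42.0, seed families, only the genotypes compared, a term for library number, a replicate block, a pseudocount of 5, the percent scale and leaving out each replicate. Leaving out replicates for the lists, marker lists included, was chosen after seeing the data. No 2 replicates agreed within sampling noise (36 pairs, chi-square per degree of freedom of 26.8 or more). The scripts were tested on simulated data.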

Additional observations from a re-analysis of the deposited data

Results flagged for a closer look

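The fitted log2 fold changes of miR-107-3p in Ago413-/- had opposite signs in the cell types, and neither passed the test (edgeR adjusted p 0.287 in spermatocytes and 0.102 in round spermatids). Every Ago413-/- library was below the Ago413+/+ mean in spermatocytes and above it in round spermatids. How many of the 450 miRNAs show such a pattern was not counted. The mean log2 CPM difference of miR-107-3p between Ago413-/- and Ago413+/+ was higher in round spermatids by 1.24. The interaction term that tests this difference between the cell types gave an edgeR p of 0.0182 and an adjusted p of 0.381, so it did not pass over all 450 miRNAs. With plain library totals 3 of the 4 Ago413-/- round spermatid libraries were above the mean. No library stood out by Dixon's test in the 18 groups of values tested, of which chance would give 0.9.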

How the results depend on the processing

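Of the 280 alternative values of the log2 fold changes of miR-103-3p and miR-107-3p, 274 kept their direction and their side of the threshold, 5 turned direction and 1 passed it. The values that turned were all of miR-107-3p, in 3 comparisons with main log2 fold changes of 0.04, -0.15 and 0.18. Round spermatids against spermatocytes in Ago413+/- turned with library totals (-0.014), without replicate 2 of the round spermatids (-0.28) and without replicate 4 of the spermatocytes (-0.17). Ago413+/- against Ago413+/+ turned in spermatocytes without replicate 4 of Ago413+/- (0.090), and in round spermatids without replicate 2 of Ago413+/- (-0.084). Over the replicates left out, these 3 comparisons ranged from -0.28 to 0.25, from -0.44 to 0.090 and from -0.084 to 0.30. The number of members called was 0 in 142 of 143 alternatives, and ranged from 0 to 1 over the replicates left out for round spermatids against spermatocytes in Ago413-/-. Leaving out replicates, the log2 ratio of the guide strands ranged from -0.13 to 0.19 for Ago413+/- against Ago413+/+ in spermatocytes and from -0.20 to 0.026 in round spermatids, for Ago413-/- against Ago413+/+ from -0.49 to -0.057 and from 0.18 to 0.40, and for the cell types of Ago413-/- from 0.17 to 0.59, with 5 of all 77 alternatives of the ratio turned. For each of these the cause was not tested.

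Summing both guide strands as a seed family gave a log2 fold change of 0.087 in Ago413-/- round spermatids (edgeR adjusted p 0.769) and -0.46 in spermatocytes (0.452). That sum is mostly miR-103-3p. Its 0.087 is below both strands (0.30 and 0.60), so it is not their joint change on the main scale. For miR-107-3p by itself in these round spermatids, the adjusted p ran from 0.0848 to 0.568 over 17 alternatives. The number of all miRNAs called in Ago413-/- spermatocytes was 18 with edgeR, 61 with DESeq2, 55 without a filter on low counts and 11 without replicate 2 of Ago413+/+. In round spermatids it was 69, and 42 with at least 10 counts in every library. For round spermatids against spermatocytes in Ago413-/- it was 22, and 37 with DESeq2, 43 without a filter and 1 to 62 over the replicates left out. With a term for library number (up to 60 against from 65), the log2 fold changes of miR-107-3p in Ago413-/- were -0.72 and 0.60. Where edgeR called no miRNA, dropping the filter gave 4 to 8. With 10 counts in every library, miR-107-3p had no value in spermatocytes or over all 24 libraries, since 1 library held 9.

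Whether libraries with the same replicate number share a pool of testes is not given. For 11 of the 12 pairs of one genotype and number in both cell types, the library numbers were consecutive. Of these 12 pairs, 6 had deviations correlated over 0.1 (-0.16 to 0.42). Against Ago413+/+, 3 of 4 Ago413-/- spermatocyte pairs had (-0.12 to 0.34), 1 of 4 in round spermatids, and 0 and 2 of 4 for Ago413+/-. Not every pair was over 0.1, so the numbers were not used as pairs, which does not show independence. With the replicate block the log2 fold changes of miR-107-3p in Ago413-/- were -0.78 in spermatocytes and 0.62 in round spermatids (edgeR adjusted p 0.278 and 0.142), those of miR-103-3p were -0.40 and 0.31, and the block changed no call of a member. For the ratio, 4 pairs cannot give an exact p below 0.125, so its paired test could not pass and says nothing about the pairing (adjusted p 0.625 in all 7 contrasts).

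In the smallest library 9 counts of miR-107-3p gave an exact interval of 2.12% to 8.54% for its share. Differences in the passenger strands between groups were not detectable at this depth.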
